A study of Mus musculus with 2 samples.

Results

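The elastic fiber genes comprised *Eln*, the fibrillin genes *Fbn1* and *Fbn2*, the microfibril-associated genes *Mfap4* and *Mfap5*, and the fibulin genes *Fbln1*, *Fbln2*, *Fbln5*, *Efemp1* and *Efemp2*. They were taken by name, and all 10 were found among the 31053 genes of the count data. They were measured by scRNA-Seq in fibro/adipogenic progenitors (FAPs), the mesenchymal cells between the fibers of skeletal muscle, sorted from limb muscle of 3-week-old C57BL/6 mice as cells without 7AAD, CD45, CD31 and Vcam1 signal and with Sca1. One genotype was Bap1f/f, the littermate control called Bap1 WT, and the other was Prx1-Cre;Bap1f/f, called Bap1 ΔMPC, in which Prx1-Cre recombines the floxed *Bap1* alleles in limb mesenchyme, FAPs included. *Bap1* encodes a nuclear deubiquitinase. There was 1 library for each genotype, and the number of mice in a library was not given in the sources used here. Differences between the genotypes could therefore not be set against a spread between animals, and they are given without a p-value.

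An elastic fiber has a core of crosslinked elastin and a mantle of microfibrils. Microfibrils are polymers of fibrillin that carry small microfibril-associated glycoproteins such as the product of *Mfap5*, and fibulins bring tropoelastin, the soluble monomer, together with lysyl oxidases and fibrillin. Fibroblasts of the connective tissue around muscle fibers and fascicles make these proteins, and in many tissues elastin synthesis belongs to late fetal and early postnatal growth.

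In the library labelled Bap1 WT 51015705 UMIs came from 4103 cells, and in the library labelled Bap1 ΔMPC 49540066 UMIs came from 4378 cells. The names Bap1 WT and Bap1 ΔMPC stand below for the libraries labelled so. *Bap1* itself had 17.6 CPM (counts per 1000000 UMIs, from summed UMIs) in Bap1 WT and 21.6 CPM in Bap1 ΔMPC. Counts of a 3′ assay need not come from the deleted part of the gene, so they check neither label. The libraries shared 5 cell barcodes of 8481. The FAP genes *Pdgfra* and *Ly6a* were at 347 and 1640 CPM in Bap1 WT and at 298 and 2002 CPM in Bap1 ΔMPC. The 5 immune markers summed to 4.82 and 7.55 CPM, with *Ptprc* and *Cd3e* at 0 in both libraries. The 4 muscle stem cell markers summed to 37.6 and 20.5 CPM, all of it *Vcam1*, with *Pax7*, *Myf5* and *Myod1* at 0 in both. The 5 endothelial markers summed to at most 7.00 CPM and the 7 mural and smooth muscle markers to 15.9 to 77.8 CPM over the classes and libraries. Other lists were higher in Bap1 ΔMPC, with 6.21 and 75.6 CPM for the 5 adipocyte markers (7.67 and 103 CPM in the other cells defined below), 19.2 and 66.0 CPM for the 4 Schwann cell markers, 32.0 and 60.9 CPM for the 4 cartilage markers and 32.8 and 60.4 CPM for the 5 cycling markers. Among these *Cidec* was at 0 in Bap1 WT, *Sox10* in Bap1 ΔMPC and *Matn1* in both. Tendon markers also differed, and their values stand beside *Eln* below. The part of these lists in the results was not tested beyond the values given.

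Dpp4-type cells were defined without any elastic fiber gene, as those with at least 20 UMIs of *Pi16*, *Sema3c* and *Anxa3* together per 10000 UMIs of the cell. This is a range of a score and not a cell type of its own, and 103 cells of Bap1 WT and 190 cells of Bap1 ΔMPC lay within 2 UMIs per 10000 of the limit. In Bap1 WT 1119 of 4103 cells passed (27.3%, exact Clopper-Pearson 95% interval 25.9% to 28.7%), and in Bap1 ΔMPC 1269 of 4378 (29.0%, 27.6% to 30.4%). The intervals overlap, and at a limit of 40 in place of 20 the order turned, with 17.6% and 14.8%. Like all intervals given here, these cover counting error only. *Dpp4*, which the score does not use, was at 289 CPM in the Dpp4-type cells and 53.9 CPM in the other cells of Bap1 WT, and at 255 and 44.0 CPM in Bap1 ΔMPC. *Cxcl14*, the marker of the second FAP subpopulation, ran the other way, with 21.1 against 320 CPM in Bap1 WT and 77.5 against 955 CPM in Bap1 ΔMPC. The class bearing the name thus held more *Dpp4* and less *Cxcl14* in both libraries.

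The elastic fiber genes divided between the classes. *Fbn1*, *Mfap5* and *Efemp1* were higher in Dpp4-type cells, *Mfap4*, *Fbln1*, *Fbln5*, *Eln* and *Fbn2* were higher in the other cells in both libraries. *Fbln2* was higher in Dpp4-type cells too, by 1.16-fold in Bap1 WT and 1.74-fold in Bap1 ΔMPC. *Efemp2* was 1.14-fold and 1.02-fold apart between the classes. Less than 2-fold apart in both libraries were also *Fbn2* and *Fbln5*, and *Eln* was so in Bap1 WT. Past a 3-fold ratio, the criterion used throughout, were *Fbn1* and *Efemp1* upward in Bap1 WT, where 2.28% of 11743 genes compared were past it, and *Mfap4* and *Fbln1* downward, where 4.93% were. In Bap1 ΔMPC *Efemp1* and *Mfap5* were past it upward, against 1.74% of 11755 genes, and *Mfap4* and *Fbln1* downward, against 5.07%. The median size of the log2 ratio was 1.08 over the 10 genes and 0.22 over all genes compared in Bap1 WT, and 1.36 and 0.23 in Bap1 ΔMPC. Classes were cut from the counts of the same cells, so these ratios describe the cells and test nothing. The limit of the score set the size of some of them. With limits of 10 and 40 UMIs per 10000 the log2 ratio of *Mfap4* in Bap1 WT was -1.02 and -3.02 in place of -1.90, and that of *Fbln1* was -1.05 and -2.50 in place of -1.71, so at 10 neither passed 3-fold there. At 40 the log2 ratios in Bap1 ΔMPC went from 2.57 to 1.98 for *Efemp1*, from -1.89 to -2.53 for *Fbln1*, from -1.59 to -2.34 for *Mfap4* and from -0.71 to -1.44 for *Fbn2*. In Bap1 ΔMPC *Mfap5* (3.02-fold) and *Mfap4* (3.00-fold) stood on the criterion. The count of 4 there became 2, *Fbln1* and *Efemp1*, with a score of *Dpp4*, *Pi16* and *Sema3c* and without the cells that held *Mki67* or *Top2a*.

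**Figure D1:**
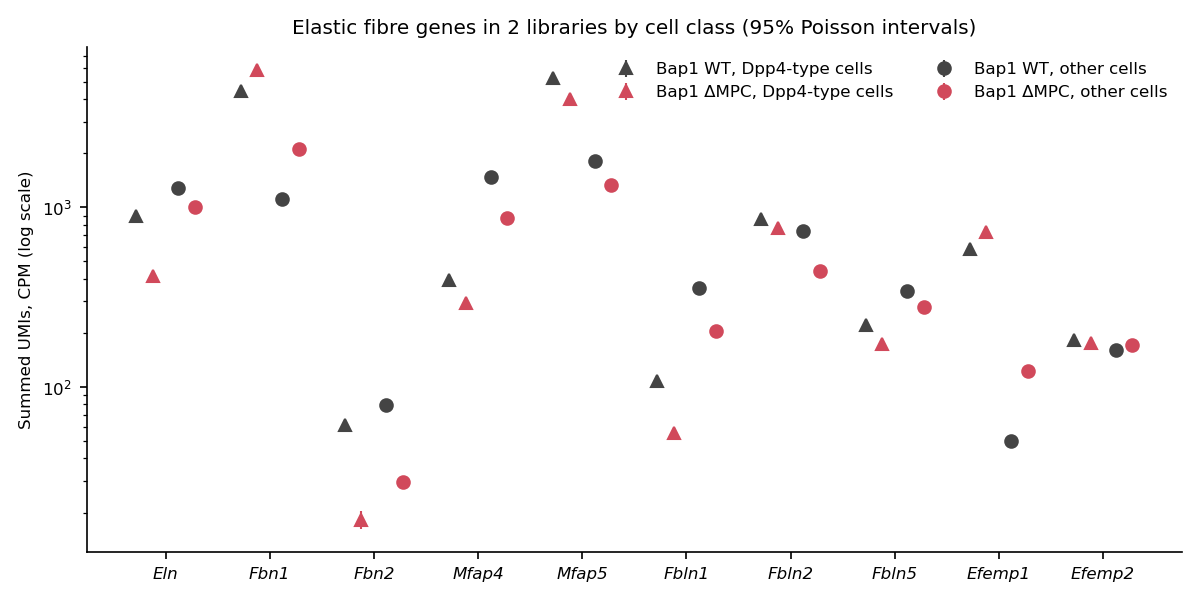
CPM of the 10 genes on a log axis, with Dpp4-type cells as triangles, other cells as circles, Bap1 WT in grey and Bap1 ΔMPC in red. Bars are Poisson 95% intervals, mostly smaller than the symbols. *Efemp1* spans 50.1 to 730 CPM and *Efemp2* only 160 to 182 CPM.

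*Fbn1*, which encodes fibrillin-1, the main fibrillin of postnatal microfibrils, was at 4436 CPM in Dpp4-type cells and 1115 CPM in other cells of Bap1 WT, and at 5788 and 2126 CPM in Bap1 ΔMPC. The ratio of the classes was 3.98-fold in Bap1 WT and 2.72-fold in Bap1 ΔMPC. Between the libraries *Fbn1* differed by a larger ratio in the other cells (1.91-fold) than in the Dpp4-type cells (1.30-fold). In CPM the gap was wider in the Dpp4-type cells. *Mfap5*, whose product binds fibrillin, was at 5274 and 1815 CPM in Bap1 WT and at 3996 and 1325 CPM in Bap1 ΔMPC, a ratio of 2.91-fold and 3.02-fold. These ratios stood just below and just above the criterion and differed from each other by 0.05 (0.03 to 0.08) on the log2 scale. *Fbn2*, the fibrillin that predominates in development, was the scarcest of the 10 by UMIs counted over all cells of each library. By class it was at 61.3 and 79.1 CPM in Bap1 WT and at 18.2 and 29.7 CPM in Bap1 ΔMPC. In other cells of Bap1 WT *Efemp1* was scarcer, at 50.1 CPM. The lower level of *Fbn2* in Dpp4-type cells was 1.29-fold and 1.63-fold.

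*Mfap4*, whose product binds elastin and fibrillin, was at 396 CPM in Dpp4-type cells and 1477 CPM in other cells of Bap1 WT, and at 292 and 878 CPM in Bap1 ΔMPC. It was 3.73-fold lower in Dpp4-type cells in Bap1 WT and 3.00-fold lower in Bap1 ΔMPC, and the 2 microfibril-associated genes lay on opposite sides. In Dpp4-type cells 13.3 UMIs of *Mfap5* were counted per UMI of *Mfap4* in Bap1 WT and 13.7 in Bap1 ΔMPC, and in other cells 1.23 and 1.51. *Eln*, which encodes tropoelastin, was at 898 and 1290 CPM in Bap1 WT and at 414 and 1005 CPM in Bap1 ΔMPC. It was thus 1.44-fold lower in the Dpp4-type cells of Bap1 WT and 2.43-fold lower in those of Bap1 ΔMPC, and the log2 ratios of -0.52 and -1.28 became -0.04 and -0.38 at a score limit of 10.

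Among the fibulins *Efemp1*, which encodes fibulin-3, had the widest span. It was at 588 CPM in Dpp4-type cells and 50.1 CPM in other cells of Bap1 WT, and at 730 and 123 CPM in Bap1 ΔMPC. The ratio was 11.7-fold (log2 3.55, interval 3.48 to 3.63) in Bap1 WT and 5.94-fold (2.57, 2.52 to 2.62) in Bap1 ΔMPC. Its close relative *Efemp2*, which encodes fibulin-4, a protein that links lysyl oxidase to tropoelastin, was at 182 and 160 CPM in Bap1 WT and at 175 and 172 CPM in Bap1 ΔMPC. The counts therefore showed the steepest and the flattest pattern of the family in this pair. *Fbln1*, which encodes a fibulin of basement membranes and elastic fibers, was at 108 and 354 CPM in Bap1 WT and at 55.5 and 206 CPM in Bap1 ΔMPC, which is 3.28-fold and 3.71-fold lower in Dpp4-type cells. *Fbln5*, whose product is needed for elastic fiber assembly, was at 223 and 343 CPM in Bap1 WT and at 174 and 281 CPM in Bap1 ΔMPC. *Fbln2* was at 857 and 739 CPM in Bap1 WT and at 770 and 442 CPM in Bap1 ΔMPC. The classes were 1.16-fold apart for *Fbln2* in Bap1 WT and 1.74-fold apart in Bap1 ΔMPC.

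Promoter sequences are shown for *Fbn1* and *Efemp1*, higher in Dpp4-type cells, and for *Fbln1*, higher in the other cells. RefSeq promoters of build GRCm38.p6, running from 250 bases before to 50 bases after a start, were at hand for 6 of the 10 genes. They lie at chr2:125506389-125506688 on the minus strand for *Fbn1*, at chr11:28852955-28853254 on the plus strand for *Efemp1* and at chr15:85205758-85206057 on the plus strand for *Fbln1*, the downstream of 2 entries. The window of *Fbn1* lies inside the GENCODE span of the gene, chr2:125300594-125507993. Capitals mark matches on either strand to the GC box, spelled GGGCGG, and to the AP-1 motif, spelled TGANTCA. The TATA box (TATAAA), the CCAAT box and the TEAD motif (GGAATG) were searched likewise.
Fbn1: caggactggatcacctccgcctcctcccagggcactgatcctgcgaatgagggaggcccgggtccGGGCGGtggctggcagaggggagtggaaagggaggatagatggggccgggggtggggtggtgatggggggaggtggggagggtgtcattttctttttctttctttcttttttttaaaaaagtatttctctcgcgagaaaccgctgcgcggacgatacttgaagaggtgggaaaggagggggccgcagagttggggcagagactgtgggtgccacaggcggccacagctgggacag
Efemp1: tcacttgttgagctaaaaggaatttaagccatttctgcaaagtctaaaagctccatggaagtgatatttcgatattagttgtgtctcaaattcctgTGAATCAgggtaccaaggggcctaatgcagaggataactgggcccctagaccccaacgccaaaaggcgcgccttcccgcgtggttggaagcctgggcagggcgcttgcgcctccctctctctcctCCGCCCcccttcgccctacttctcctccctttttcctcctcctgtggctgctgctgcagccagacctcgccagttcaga
Fbln1: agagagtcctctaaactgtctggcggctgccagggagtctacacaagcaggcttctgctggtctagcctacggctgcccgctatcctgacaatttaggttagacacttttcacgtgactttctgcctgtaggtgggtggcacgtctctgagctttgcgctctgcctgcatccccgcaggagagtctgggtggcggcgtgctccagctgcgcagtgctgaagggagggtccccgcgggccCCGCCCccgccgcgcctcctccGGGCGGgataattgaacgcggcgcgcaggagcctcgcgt

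No TATA box, CCAAT box or TEAD match stood in these windows. *Fbn1* had 1 GC box, *Efemp1* had 1 GC box and 1 AP-1 match that begins 154 bases before the start, and *Fbln1* had 2 GC boxes, while its upstream entry (chr15:85205699-85205998) had 0. No match overlapped another. A GC box was held by 35.7% of the 32851 RefSeq promoters, an AP-1 match by 7.81%, a TATA box by 13.6%, a CCAAT box by 37.4% and a TEAD match by 14.7%. A match in letters is a description of the window and not a binding site. The window of *Fbn1* was 60.3% G and C, that of *Efemp1* 54.3% and that of *Fbln1* 64.0%.

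Between the libraries most of the family was lower in Bap1 ΔMPC, and *Fbn1* and *Efemp1* were higher. Over all cells *Fbn1* was at 2094 CPM in Bap1 WT and 3231 CPM in Bap1 ΔMPC, 1.54-fold higher, and *Efemp1* at 209 and 306 CPM, 1.47-fold higher. *Fbn2* was at 73.9 and 26.3 CPM, 2.81-fold lower, the largest ratio of the 10. *Fbln1* was 1.75-fold lower (281 and 160 CPM), *Mfap4* 1.65-fold (1158 and 701 CPM), *Fbln2* 1.43-fold (774 and 541 CPM) and *Eln* 1.42-fold (1174 and 827 CPM). *Mfap5* was 1.33-fold lower (2835 and 2131 CPM) and *Fbln5* 1.24-fold lower (308 and 248 CPM). *Efemp2*, at 166 and 173 CPM, differed 1.04-fold, and the sign of its log2 ratio changed with TMM scaling. None of the 10 passed 3-fold, where 2.56% of 11761 genes did, and *Fbn2* alone passed 2-fold, where 6.63% did. The median log2 ratio was -0.46 over the 10 genes and 0.10 over all genes compared.

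Counted by class, *Fbn2* in Dpp4-type cells was the only one of the 10 past 3-fold, 3.37-fold lower in Bap1 ΔMPC with a log2 ratio of -1.75 (-1.95 to -1.56). In these cells 1.12% of 11625 genes were past 3-fold downward and 2.58% in either direction. The interval of *Fbn2* reached the criterion of 3-fold. Without the cells holding *Krt7*, *Plet1*, *Wnt4*, *Pcsk2* or *Rtl4* the count went from 1 to 0, and without those holding any of 7 tendon genes to 2, with *Eln*, both choices made after seeing the data. Past 2-fold were *Fbn2* and *Eln* (2.17-fold lower), where 7.04% of genes were past it. In the other cells none of the 10 passed 3-fold, where 3.04% of 11758 genes did. Past 2-fold there were *Fbn2*, 2.66-fold lower, and *Efemp1*, 2.45-fold higher, where 7.51% of genes were. Both classes had medians below 0, with -0.38 over the 10 genes against 0.07 over all genes in Dpp4-type cells and -0.41 against 0.10 in other cells.

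**Figure D2:**
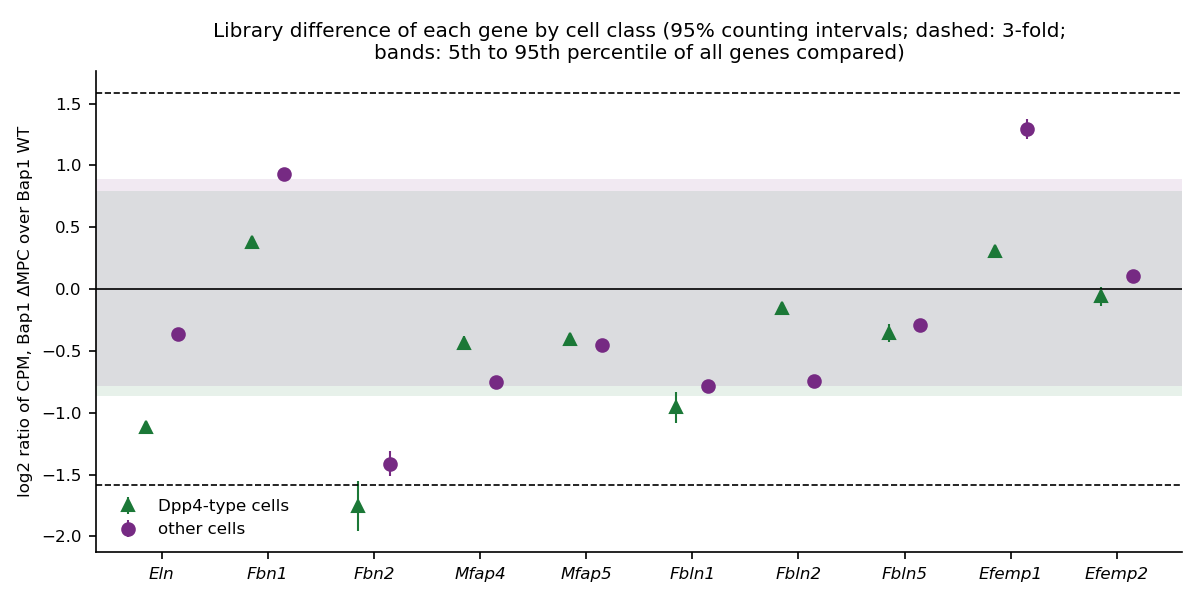
log2 ratio of CPM of each gene in Bap1 ΔMPC over Bap1 WT, in Dpp4-type cells (triangles) and other cells (circles), with 95% counting intervals. Shaded bands hold the 5th to 95th percentile of all genes compared in each class and dashed lines mark 3-fold. *Fbn2* lies below both bands in both classes, at -1.75 and -1.41, and in other cells *Efemp1* (1.30) and *Fbn1* (0.93) lie above the band. *Eln* (-1.12) and *Fbln1* (-0.96) lie below the band of Dpp4-type cells.

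Several genes differed between the libraries by unequal ratios in the 2 classes. *Efemp1* was 1.24-fold higher in Dpp4-type cells and 2.45-fold higher in other cells, a difference of -0.98 (-1.07 to -0.89) between the log2 ratios. *Fbn1* was 1.30-fold higher in Dpp4-type cells and 1.91-fold higher in other cells (-0.55, -0.57 to -0.53). *Eln* was 2.17-fold lower in Dpp4-type cells and 1.28-fold lower in other cells (-0.76, -0.81 to -0.71). *Fbln2* was 1.11-fold lower in Dpp4-type cells and 1.67-fold lower in other cells (0.59, 0.54 to 0.63). The difference for *Fbln5* was -0.07 with an interval that includes 0 (-0.15 to 0.02), and the remaining genes lay between -0.34 for *Fbn2* and 0.31 for *Mfap4*. These intervals hold for these 2 libraries, and whether the differences would recur in other animals was not tested. The score itself differed between the libraries, with a median of 50.1 in Dpp4-type cells of Bap1 WT and 40.6 in those of Bap1 ΔMPC. *Pi16* was at 3607 and 2551 CPM in these cells, *Sema3c* at 1125 and 1395 CPM and *Anxa3* at 1022 and 708 CPM. In cells scoring 20 to 40 *Efemp1* was at 360 and 624 CPM, and in those at 80 or more at 779 and 869 CPM. The part of the score in the unequal ratios was not tested. Nor was that of the cells with tendon genes or with *Krt7* or *Plet1*, whose values are given below.

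The library ratios were recomputed at equal class shares of UMIs. The classes of Bap1 ΔMPC were weighted by the share of UMIs, not of cells, that each class held in Bap1 WT. The log2 ratio of *Fbn1* then went from 0.63 to 0.61, that of *Efemp1* from 0.55 to 0.53 and that of *Eln* from -0.51 to -0.50. Those of *Mfap4* and *Fbn2* were -0.72 and -1.49 both before and after.

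The levels also differed along the score within each class. From the lowest of 6 bins of the score, under 5 UMIs per 10000, to the highest, 80 or more, *Fbn1* went from 864 to 5679 CPM in Bap1 WT and from 1630 to 7510 CPM in Bap1 ΔMPC. It was higher in each bin than in the bin before in both libraries, as *Mfap5* was, which went from 1474 to 7454 CPM and from 940 to 5514 CPM. *Efemp1* went from 32.7 to 779 CPM in Bap1 WT and from 73.1 to 869 CPM in Bap1 ΔMPC. In the bin from 10 to 20, still under the limit, *Efemp1* was already at 129 CPM in Bap1 WT and 347 CPM in Bap1 ΔMPC.

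*Mfap4* and *Eln* peaked inside the range. *Mfap4* was highest in the bin from 5 to 10, at 1678 CPM in Bap1 WT and 1167 CPM in Bap1 ΔMPC, and lowest in the top bin, at 111 and 96.1 CPM. *Eln* was highest at 10 to 20 in Bap1 WT (1824 CPM) and at 5 to 10 in Bap1 ΔMPC (1742 CPM), against 1124 and 742 CPM in the lowest bin and 869 and 307 CPM in the top bin. In the bin from 5 to 10 *Eln* was higher in Bap1 ΔMPC (1742 against 1366 CPM), the only bin where it was. *Fbln1* went from 375 CPM in the lowest bin to 41.1 CPM in the top bin of Bap1 WT and from 226 to 22.8 CPM in Bap1 ΔMPC. *Efemp2* stayed between 150 and 196 CPM in all bins of both libraries. The bins held 140 to 2212 cells.

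**Figure D3:**
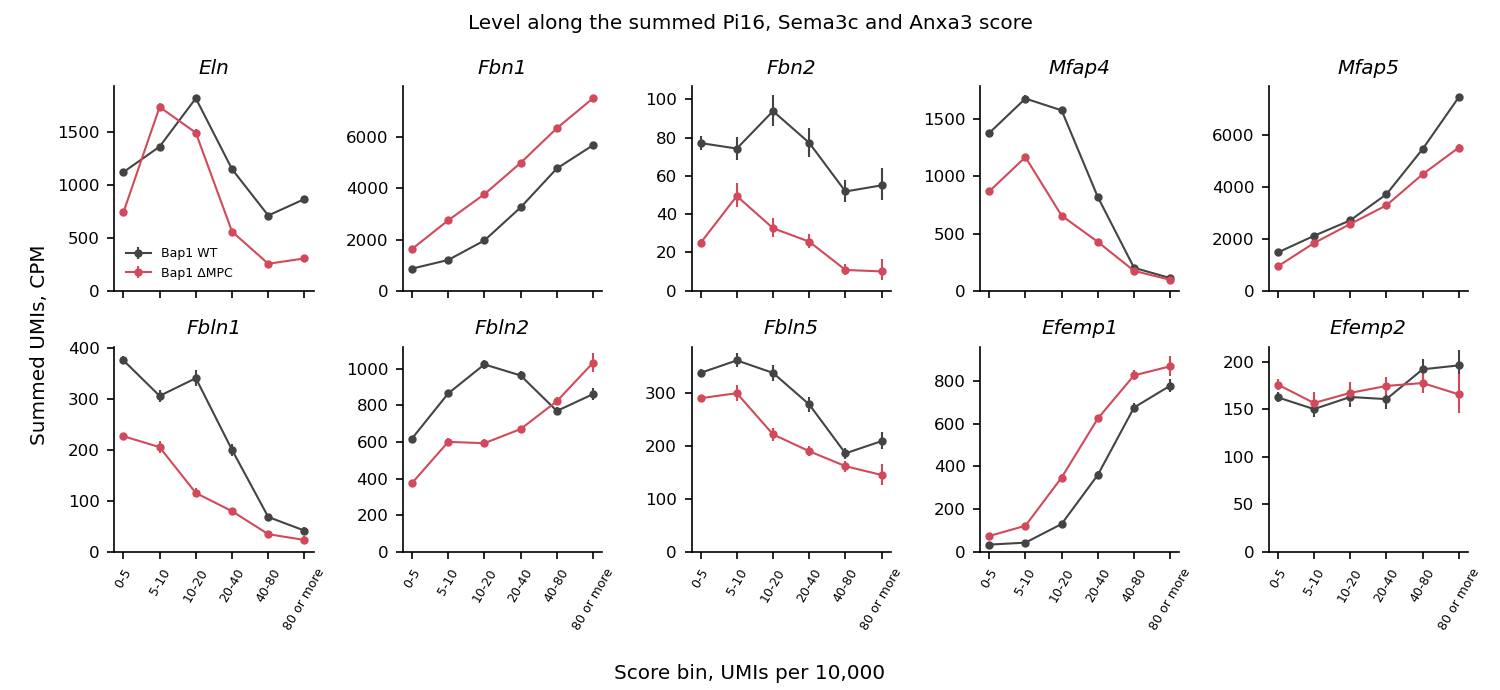
CPM of each gene on a linear axis from 0 in 6 bins of the score of *Pi16*, *Sema3c* and *Anxa3*, in Bap1 WT (grey) and Bap1 ΔMPC (red), with Poisson 95% intervals. *Fbn1*, *Mfap5* and *Efemp1* climb along the score, *Fbln1* is lowest in the top bin, and *Mfap4* and *Eln* peak at low or intermediate scores.

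The genes differed in how evenly they were spread over cells. *Fbn1* had a UMI in every Dpp4-type cell of both libraries, and its median cell held 41.0 UMIs per 10000 in Bap1 WT and 53.4 in Bap1 ΔMPC. In other cells the medians were 8.59 and 16.7. *Mfap5* had medians of 48.4 and 36.2 in Dpp4-type cells and 14.9 and 9.98 in other cells. For both genes the median cell thus differed between the libraries in the direction of the summed counts. *Mfap4* had a median of 7.42 in the other cells of Bap1 WT and 1.13 in those of Bap1 ΔMPC, while its 90th percentiles were 39.4 and 27.1.

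*Eln* was concentrated in few cells. With every cell thinned to 5000 UMIs, which left out 120 shallower cells of Bap1 WT and 210 of Bap1 ΔMPC, the tenth of cells with most *Eln* held 58.6% of its UMIs in Bap1 WT and 77.2% in Bap1 ΔMPC. The ratio of variance to mean was 28.3 and 61.0. The share of thinned cells with an *Eln* UMI was 72.1% in Bap1 WT and 53.4% in Bap1 ΔMPC, and without thinning it was 85.3% and 68.6% at median depths of 12232 and 11017.5 UMIs. A smaller share of cells thus held *Eln* in Bap1 ΔMPC, and its UMIs were more unevenly spread. For *Fbn1* the tenth of cells with most held 35.3% and 28.1%.

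*Efemp1* had a UMI in 81.3% of thinned Dpp4-type cells of Bap1 WT and 79.2% of those of Bap1 ΔMPC, and in 14.2% and 24.6% of the other cells. Without thinning these shares were 89.5% and 86.4%, and 21.7% and 33.3%, at median depths of 13586 and 11606 UMIs in Dpp4-type cells and 11806.5 and 10768 UMIs in other cells. *Fbn2* had a UMI in 17.4% of all thinned cells of Bap1 WT and 6.69% of those of Bap1 ΔMPC (29.1% and 11.6% unthinned). No cell type that lacks these genes is among the sorted cells, so the share that free RNA gives was not measured. This limit covers the *Efemp1* UMIs of the other cells too.

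**Figure D4:**
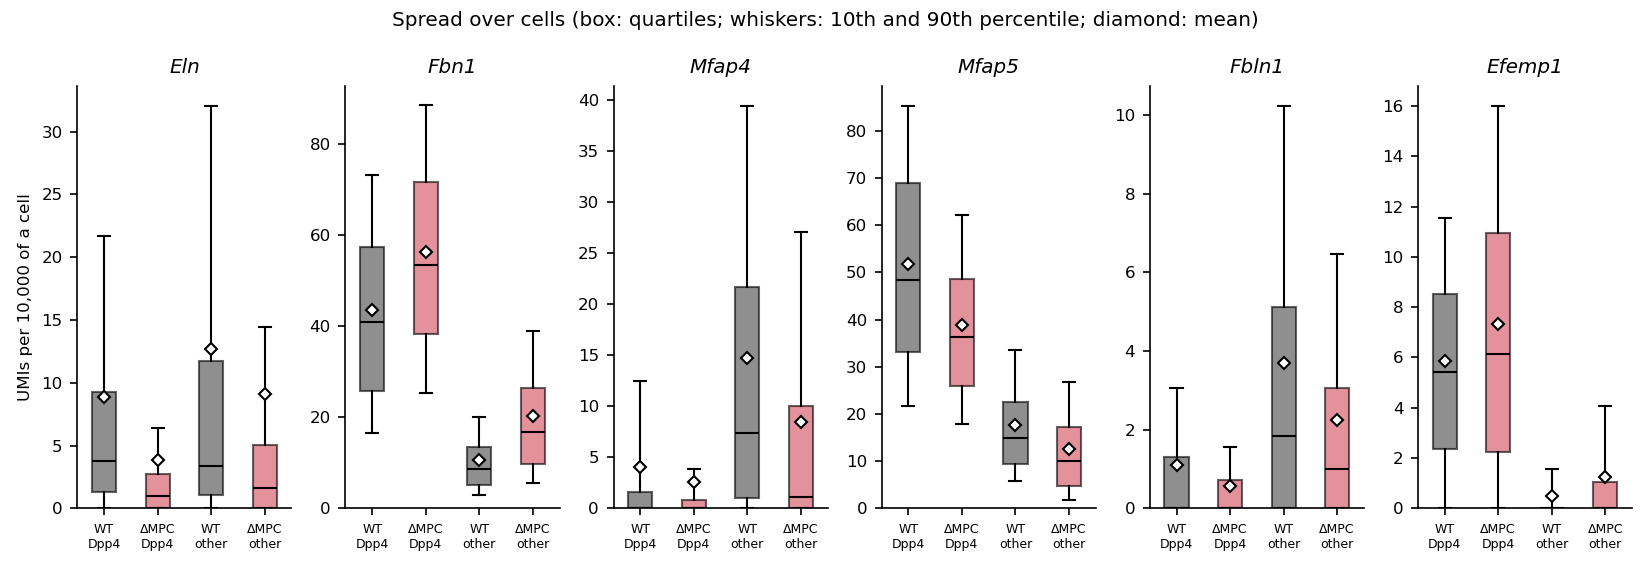
UMIs per 10000 of a cell for 6 genes, by library and class, on linear axes from 0. Boxes span the quartiles with the median as a line, whiskers the 10th and 90th percentiles, and diamonds mark the mean over cells. Means of *Eln* lie well above the medians, as in other cells of Bap1 ΔMPC with a median of 1.62, whereas means and medians of *Fbn1* lie close together.

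Correlations across cells are given as a description, over 3983 thinned cells of Bap1 WT and 4168 of Bap1 ΔMPC, which share a library and, within each, 1 depth. *Fbn1* and *Mfap5* went together, with r of 0.65 in Bap1 WT and 0.63 in Bap1 ΔMPC over all cells and 0.61 and 0.39 within Dpp4-type cells. *Eln* and *Mfap4* had r of 0.40 and 0.48 over all cells, and of 0.46 and 0.46 within other cells. *Efemp1* and *Mfap4* were opposed, with r of -0.44 and -0.35 over all cells and -0.46 and -0.36 within Dpp4-type cells. *Eln* and *Fbn1*, which encode the core and the mantle of the fiber, had r of -0.05 in Bap1 WT and 0.01 in Bap1 ΔMPC over all cells, -0.19 and -0.09 within Dpp4-type cells and 0.01 and 0.16 within other cells.

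The gene outside the family whose counts over all cells were most like those of *Eln*, by the lower r of the 2 libraries, was *Lox*, the lysyl oxidase that crosslinks elastin and collagen, with 0.37 in Bap1 WT and 0.41 in Bap1 ΔMPC. It was followed by *Itgbl1* (0.29 and 0.33), *Pcsk5* (0.28 and 0.28), *Pmepa1* (0.25 and 0.32) and *Col8a1* (0.22 and 0.42). Within Dpp4-type cells and within other cells *Lox* again came first. Most like *Efemp1* were *Sema3c* (0.59 and 0.56), *Creb5* (0.50 and 0.50), *Cd248* (0.50 and 0.50), *Pi16* (0.63 and 0.49) and *Anxa3* (0.65 and 0.49), and 3 of these 5 are the genes of the score. Most like the sum of the 10 genes were *Pi16* (0.56 and 0.55), *Fstl1* (0.52 and 0.57), *Sema3c* (0.45 and 0.52), *Anxa3* (0.45 and 0.51) and *Pcsk6* (0.43 and 0.51). Again 3 of these 5 are genes of the score. The sum weighs each gene by its UMIs. Of the family's UMIs over all cells *Fbn1* and *Mfap5* made up 23.1% and 31.2% in Bap1 WT and 38.7% and 25.5% in Bap1 ΔMPC.

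As a family the 10 genes took 0.91% of all UMIs in Bap1 WT and 0.83% in Bap1 ΔMPC, and 1.30% and 1.24% in Dpp4-type cells. What differed more was the makeup. *Fbn1* made up 23.1% of the family's UMIs in Bap1 WT and 38.7% in Bap1 ΔMPC, and *Mfap4* 12.8% and 8.40%. Per UMI of *Fbn2* there were 28.3 UMIs of *Fbn1* in Bap1 WT and 123 in Bap1 ΔMPC, and per UMI of *Eln* 1.78 and 3.91. These are ratios of counted 3′ ends, and they compare the libraries and not the amounts of the proteins.

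Other genes of the pathway were taken from 4 lists. Of 59 genes 45 passed the minimums of mean level and UMIs to be compared between the libraries in both classes and 3 more in other cells only. In Dpp4-type cells none of the 45 was past 3-fold, where 2.58% of all genes compared were, and in other cells *Ltbp1*, *Emilin3*, *Hmcn1* and *Itga8* were, 4 of 48, where 3.04% were. All 5 crosslinking genes were counted, and 4 of 5 were lower in Bap1 ΔMPC over all cells, where of all 11761 genes compared 7360 were higher and 4401 lower. *Lox* was at 186 and 86.5 CPM over all cells, 2.15-fold lower, *Loxl1* at 532 and 509 CPM, *Loxl3* at 55.5 and 46.8 CPM and *Loxl4* at 3.86 and 2.04 CPM. *Loxl2* went the other way, at 349 and 554 CPM. *Lox* was 2.73-fold lower in Dpp4-type cells and 2.03-fold lower in other cells, so the enzyme gene and *Eln* were lower together in both classes.

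Of 19 microfibril and fiber partners compared over all cells, 10 were higher and 9 lower in Bap1 ΔMPC, with a median log2 ratio of 0.05. *Ltbp1*, whose product holds latent TGF-β on fibrillin microfibrils, was at 90.3 CPM in Bap1 WT and 314 CPM in Bap1 ΔMPC, and it was 5.73-fold higher in other cells (46.3 and 265 CPM) and 2.17-fold higher in Dpp4-type cells (196 and 425 CPM). *Ltbp4*, whose product takes part in elastic fiber assembly, was at 946 and 496 CPM over all cells. The counts per UMI of *Ltbp1* thus went from 10.5 UMIs of *Ltbp4* to 1.58. *Mfap2*, the microfibril glycoprotein gene related to *Mfap5*, was at 622 and 304 CPM, 2.77-fold lower in Dpp4-type cells and 1.88-fold lower in other cells. *Hmcn1*, which encodes a large fibulin-related matrix protein, was at 46.0 and 12.7 CPM. *Emilin2*, of the elastin interface family, was at 214 and 403 CPM.

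Of 16 genes for processing and cell receptors compared over all cells, 9 were higher and 7 lower, with *Itga8*, an integrin subunit, past 3-fold at 7.61 and 2.52 CPM, where 2.56% of all genes compared were past it. *Pcsk6*, a proprotein convertase, was at 256 and 501 CPM. Of 8 proteases and inhibitors compared, 4 were higher and 4 lower and none was past 3-fold, and the other 8 of that list were under the minimum of mean level or of UMIs. The elastase genes *Mmp12* and *Elane* were among those 8.

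Between the classes more of the pathway was apart. In Bap1 WT 14 of 48 list genes were past 3-fold, where 7.21% of all genes compared were, and in Bap1 ΔMPC 12 of 48 were, where 6.81% were. The share past 2-fold over all genes was 12.8% in each library. *Emilin2*, *Adamtsl4* and *Pcsk6* were higher in Dpp4-type cells past 3-fold in both libraries, at 5.40-fold, 3.99-fold and 4.42-fold in Bap1 WT. *Emilin1* (3.11-fold), *Fbln7* (18.4-fold) and *Bgn* (4.39-fold), a small proteoglycan that binds tropoelastin, were past it downward there and in Bap1 ΔMPC. So were *Hmcn1* and *Adamts17*, at 8.45 against 61.7 CPM and 1.33 against 11.1 CPM in Bap1 WT. *Ltbp1* was 4.22-fold higher in Dpp4-type cells of Bap1 WT and 1.60-fold higher in those of Bap1 ΔMPC.

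**Figure D5:**
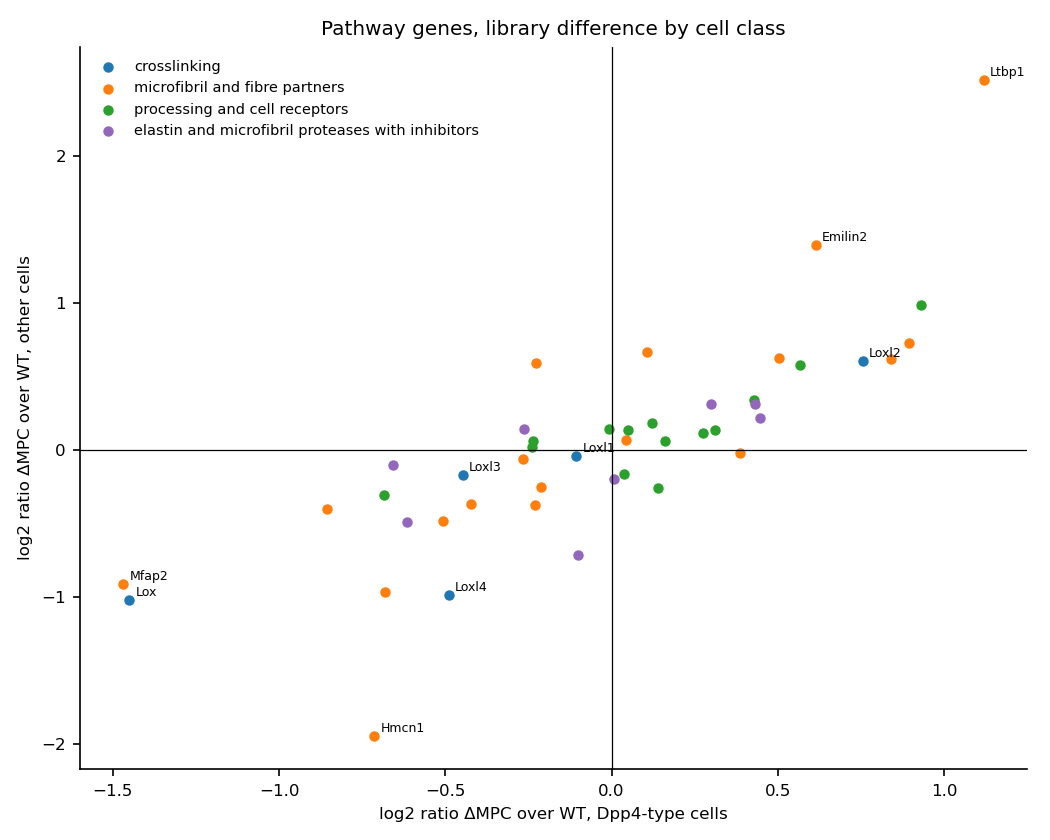
log2 ratio of Bap1 ΔMPC over Bap1 WT for the 45 pathway genes compared in both classes, with Dpp4-type cells on the x axis and other cells on the y axis. Colors mark the 4 lists, and crosslinking genes and those past 2-fold in a class are named. *Ltbp1* stands at the top right (1.12 and 2.52) and *Lox* (-1.45 and -1.02) and *Mfap2* (-1.47 and -0.91) at the lower left.

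Tendon markers differed between the libraries beside *Eln*. The 7 tendon genes *Tnmd*, *Scx*, *Mkx*, *Chad*, *Cilp2*, *Comp* and *Thbs4* summed to 256 CPM in other cells of Bap1 WT and 772 CPM in those of Bap1 ΔMPC, and to 55.6 and 99.1 CPM in Dpp4-type cells. None of the 7 was at 0 in either library. In other cells with a UMI of *Tnmd*, *Chad* or *Cilp2*, 329 in Bap1 WT and 487 in Bap1 ΔMPC, *Eln* was at 1072 and 2205 CPM. In the 2655 and 2622 other cells without them it was at 1318 and 760 CPM. Without any cell that held a UMI of the 7 genes, which left 2839 and 2765 cells, the log2 ratio of *Eln* was -1.51 in place of -0.51 over all cells, -1.85 in place of -1.12 in Dpp4-type cells and -1.39 in place of -0.36 in other cells. *Eln* was thus lower in Bap1 ΔMPC by a larger ratio among the cells without these markers. The log2 ratios of the 2 classes also lay closer together there. The part of the cells with these markers in the library difference of *Eln* was not tested beyond these values.

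The other 9 genes had the same sign of the log2 ratio in the cells with and without *Tnmd*, *Chad* or *Cilp2*, although for *Fbln5* (-0.06) and *Efemp2* (0.13) the interval in the cells with these markers included 0. *Fbn1* was at 974 CPM in Bap1 WT and 2012 CPM in Bap1 ΔMPC in the other cells with *Tnmd*, *Chad* or *Cilp2*, and at 1133 and 2150 CPM in those without. *Mfap4* was at 1115 and 1023 CPM with these markers and at 1524 and 848 CPM without. *Fbn2* was at 94.9 and 45.9 CPM with them and at 77.0 and 26.5 CPM without. Without the cells holding any of the 7 tendon genes the log2 ratio of *Mfap4* between the classes was -2.56 in Bap1 WT and -2.48 in Bap1 ΔMPC.

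*Fbn2* differed in the opposite direction in cells with transcripts of the cell cycle. In the cells with a UMI of *Mki67* or *Top2a*, 117 in Bap1 WT and 201 in Bap1 ΔMPC, it was at 25.2 and 42.2 CPM, 1.67-fold higher in Bap1 ΔMPC with a log2 ratio of 0.74 (0.21 to 1.29) from 41 and 114 UMIs. In the 3986 and 4177 cells without them it was at 75.5 and 25.3 CPM, 2.98-fold lower (-1.57, -1.67 to -1.48). The level of *Fbn2* was thus lower with these genes than without them in Bap1 WT and higher in Bap1 ΔMPC. Of the other 9 genes *Fbln5*, *Eln*, *Mfap4*, *Efemp1* and *Efemp2* had intervals that included 0 in the cells with these genes.

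Within Dpp4-type cells the 35 cells of Bap1 WT and 291 of Bap1 ΔMPC with a UMI of *Krt7* or *Plet1* had less *Eln* and more *Fbln2*. *Eln* was at 220 and 197 CPM in these cells and at 921 and 480 CPM in the Dpp4-type cells without them. *Fbln2* was at 1550 and 1165 CPM with and at 833 and 650 CPM without. It was thus 1.33-fold lower in Bap1 ΔMPC with and 1.28-fold lower without, against 1.11-fold in all Dpp4-type cells. *Eln* was therefore 1.92-fold lower in Bap1 ΔMPC in the cells without *Krt7* and *Plet1*, against 2.17-fold in all Dpp4-type cells, and *Fbn2* was 2.85-fold lower, against 3.37-fold. In other cells *Eln* was at 781 and 606 CPM where *Cxcl14* was counted and at 1714 and 1526 CPM where it was not. The cells with *Cxcl14* numbered 1320 in Bap1 WT and 1728 in Bap1 ΔMPC.

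In the GENCODE annotation of GRCm38 (mm10) used for locations, *Eln* (ENSMUSG00000029675.12) lies at chr5:134702593-134747323 on the minus strand, *Fbn1* (ENSMUSG00000027204.13) at chr2:125300594-125507993 on the minus strand and *Efemp1* (ENSMUSG00000020467.15) at chr11:28853204-28926743 on the plus strand. *Mfap4* (ENSMUSG00000042436.12) is on the same chromosome as *Efemp1*, at chr11:61485431-61488900, and *Fbln2* (ENSMUSG00000064080.12) and *Mfap5* (ENSMUSG00000030116.14) are both on chromosome 6, at chr6:91212455-91272540 and chr6:122505845-122529290, all 3 on the plus strand. *Fbln1* (ENSMUSG00000006369.14) lies at chr15:85205949-85286535 and *Efemp2* (ENSMUSG00000024909.15) at chr19:5473954-5482517, on the plus strand, and *Fbln5* (ENSMUSG00000021186.9) at chr12:101746565-101819055 on the minus strand. *Fbn2* (ENSMUSG00000024598.9) lies at chr18:58008623-58210487 on the minus strand. No annotated gene on the same strand overlapped any of the 10, and on the opposite strand *Gm30003* overlapped *Eln*, *Gm9913* overlapped *Fbn1*, *Gm26507* overlapped *Fbn2*, *Mus81* overlapped *Efemp2* and *Mapk7* overlapped *Mfap4*. UMIs of the 3′ assay are counted per gene over exons, so they were not divided among exons or transcripts.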

How the data were processed

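UMI counts per gene and cell were deposited by the authors without normalization, from 10x Genomics Chromium 3′ v3.1 libraries. Per the labels and the study's methods, reads were aligned to mm10 with Cell Ranger 3.1.0, and low-quality cells, doublets and cells other than FAPs were taken out with Seurat 3.2.1. Every cell had 1501 to 4998 genes and less than 5% mitochondrial UMIs, and no cell was removed here and no doublet caller run.

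For each class and library UMIs were added up and scaled to CPM. Genes with a mean log-normalized value over 0.01 and 20 or more UMIs in the 2 groups were compared, and a count of 0 was set to a floor of 3 counts. Intervals are exact at 95% (Poisson, conditional binomial for ratios). The difference of log2 ratios has a normal interval from the counts. Cells thinned to 5000 UMIs gave correlations of log values. With 1 library per genotype no test was run. The members and lists were chosen with earlier results of these data known. Named beyond the 10 genes were the score, sort and class genes, the crosslinking list and the 5 genes most alike over cells. Pathway genes past 3-fold with 100 or more UMIs were named in part (at most 10 per comparison). The calculation of the ratios was run on simulated counts. These held Poisson error only, so they check the arithmetic and not a spread between animals or cells. Alternatives changed the score, depth, scaling, cells kept, minimum and fold. Python 3.11.15, scipy 1.17.1 and edgeR 4.0.16 (TMM factors only) were used.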

Additional observations from a re-analysis of the deposited data

Results flagged for a closer look

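*Eln* in cells outside the Dpp4-type class was set apart because it differed between the libraries in opposite directions in cells with and without tendon genes. The log2 ratio of Bap1 ΔMPC over Bap1 WT was 1.04 in the cells with a UMI of *Tnmd*, *Chad* or *Cilp2* (0.99 to 1.09) and -0.79 in those without (-0.82 to -0.77). The difference was not tested, since each genotype had 1 library. *Fbn2* was set apart likewise in the split by cell cycle genes over all cells. Its log2 ratio was 0.74 in the cells with a UMI of *Mki67* or *Top2a* (0.21 to 1.29) and -1.57 in those without (-1.67 to -1.48), and this difference was not tested either. No other gene of the 10 had intervals on opposite sides of 0 in these splits, and none of the 10 did in the splits by class, *Cxcl14*, or *Wnt4*, *Pcsk2* and *Rtl4*, or between the class ratios of the 2 libraries.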

How the results depend on the processing

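No paired analysis was possible because 1 library stood for each genotype. For the same reason no library could be left out, and the alternatives below change only how the counts of these libraries were used. Of 76 recounts of the genes past 3-fold, 63 stayed within 1.5 times of the count reported and 13 did not.

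Over all cells the count went from 0 to 1, *Fbn2*, with TMM factors, without the 5% of cells of most UMIs, without cells holding *Tnmd*, *Chad* or *Cilp2*, without cells holding any of the 7 tendon genes and at a fold of 2. In Dpp4-type cells it went from 1 to 2 with *Eln* at a fold of 2 and without cells holding any of the 7 tendon genes, and to 0 without cells holding *Krt7*, *Plet1*, *Wnt4*, *Pcsk2* or *Rtl4*. In other cells it went from 0 to 2 at a fold of 2 and to 1 without the 7 tendon genes. Between the classes it went from 4 to 2 in Bap1 WT at a score limit of 10, and from 4 to 2 in Bap1 ΔMPC with the score of *Dpp4*, *Pi16* and *Sema3c* and without cells holding *Mki67* or *Top2a*. The cause was not tested, except that a lower fold passes more genes by construction.

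The share of Dpp4-type cells was 38.2% in Bap1 WT and 39.5% in Bap1 ΔMPC at a limit of 10, 17.6% and 14.8%, with the order turned, at 40, 25.9% and 25.9% with *Dpp4* in the score, 28.8% and 30.7% without *Tnmd*, *Chad* or *Cilp2*, 31.8% and 34.6% without the 7 tendon genes, and 26.3% in Bap1 ΔMPC without the *Krt7* to *Rtl4* cells. Of the log2 ratios of the 10 genes, those that changed sign were *Efemp2* (main values 0.05 over all cells, 0.10 in other cells, 0.03 between the classes of Bap1 ΔMPC) and *Fbln2* in Dpp4-type cells, from -0.15 to 0.12 at a limit of 40. TMM factors moved the log2 ratios by at most 0.11. The log2 ratio of *Eln* ranged from -1.51 to -0.27 over all cells, from -1.85 to -0.71 in Dpp4-type cells and from -1.39 to -0.15 in other cells. In Dpp4-type cells that of *Mfap4* ranged from -0.98 to -0.13 and that of *Fbn2* from -2.31 to -1.31. Leaving out the *Krt7* to *Rtl4* cells or those with any of the 7 tendon genes, and taking an equal share of cells by score, were chosen after seeing the data. Depth limited *Fbn2* most, with 272 UMIs in Dpp4-type cells of Bap1 ΔMPC.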
